A study of Mus musculus with 8 samples.

Results

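Runx1, Runx2, Runx3 and Cbfb, the genes of the Runx transcription factors and of their shared partner, were followed in bone marrow cells of mice with and without exon 16 of Dido1. The members were taken by name, and they are 4 of the 26118 named genes and 19 of the 63753 transcripts that the pre-B RNA-seq libraries have in common. In LSK cells (Lin- Sca-1+ cKit+ stem and progenitor cells) the MACS2 peaks annotated to the 4 genes numbered 18 and 39 in WT and 6 and 9 in Dido1∆E16. The study asked what loss of Dido3, the longest Dido1 product, does to open chromatin in LSK cells and to RNA in pre-B cells. It sequenced 2 WT and 2 Dido1∆E16 libraries with ATAC-seq, which cuts accessible DNA, and 2 and 2 with RNA-seq.

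The Dido1∆E16 animals carried 1 floxed and 1 already deleted copy of the exon (Dido1 flE16/∆E16), and their WT littermates carried 1 floxed and 1 intact copy (Dido1 flE16/+), so the WT cells are themselves heterozygous after recombination. Both genotypes were C57BL/6, carried the Vav1:iCre transgene, which acts in blood cells from early in development, and an R26R-EYFP reporter, and were 6 to 10 weeks old. Each RNA library came from a pool of 2 to 3 mice, sorted by surface markers of IgM- B-lineage cells, a gate that also admits pro-B cells. In the pre-B libraries the terminal exon of the long Dido1 transcript, exon 16, had a scaled coverage of 24.6 and 21.8 in WT and of 0.295 and 0.084 in Dido1∆E16.

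Runx proteins bind DNA through the Runt domain at the core sequence TGTGGT, and Cbfb, which does not touch DNA itself, binds them and strengthens that contact. Runx1 is needed for the first blood stem cells and for early B cells, Runx2 directs bone formation, and Runx3 acts in cytotoxic T cells, natural killer cells and sensory neurons. Each Runx gene has a distal promoter (P1) and a proximal promoter (P2), which give proteins with different amino-terminal ends.

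The P1 promoters of the 3 Runx genes share a short stretch of sequence, shown here because the accessible regions of Runx1 and Runx3 described further on contain it. Among 32851 RefSeq promoters of 300 bp (GRCm38, as all coordinates here), only 7 hold the word TGTGGT in 2 copies separated by 2 bases on 1 strand (0.0213%), and 3 of these are the P1 promoters of Runx1, Runx2 and Runx3. TGTGGT alone, on either strand, occurs in 16.8% of the promoters. In all 3 genes the words lie on the strand opposite to the transcript, and capitals mark them in the lines that follow.
Runx1 P1, chr16:92826025-92826054, plus strand: acccaactTGTGGTtcTGTGGTtgtttatg
Runx2 P1, chr17:44814583-44814612, plus strand: accgcactTGTGGTtcTGTGGTtgtttgtg
Runx3 P1, chr4:135120503-135120532, minus strand: cctggcctTGTGGTtcTGTGGTtgagggac
The words of Runx1 lie 28 and 36 bases and those of Runx2 23 and 31 bases after the RefSeq start, inside the first exon, and those of Runx3 lie 134 and 126 bases before it. The P2 promoters of Runx1 and Runx3 and the promoter of Cbfb hold neither TGTGGT nor TGCGGT, a variant of the word. These P2 and Cbfb promoters have a GC content of 69.0%, 77.3% and 69.7%, against 45.0% in Runx1 P1, 45.3% in Runx2 P1 and 63.7% in Runx3 P1. A match of letters is a description and does not show that a factor binds there.

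In pre-B cells Cbfb had the highest RNA level of the 4 genes, followed by Runx1 and then Runx3, and Runx2 was listed at 0 in every library. Runx3 lay 2.27-fold higher in Dido1∆E16 (on the log2(TPM + 1) scale), without overlap of the libraries, but it did not pass the test adjusted over all genes. Runx1 and Cbfb overlapped between the genotypes. Levels are in TPM, the share of each transcript among all transcripts after division by length, so that they can be compared between genes.

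Cbfb, the common partner, stood at 265 and 164 TPM in WT and at 177 and 173 TPM in Dido1∆E16 (mean 214 ± 71.4 and 175 ± 2.3, SD, n = 2 each). The first WT library stood above the other 3, which lay close together, so the genotypes overlapped. Its mean was higher than that of 92.1% of the 11855 genes tested. The WT libraries lay farther apart from each other, by 0.69 on the log2(TPM + 1) scale, than the genotype means did. The limma fit gave a log2 fold change of -0.25 (SE 0.26, 95% interval -0.97 to 0.46, adjusted p = 0.752).

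Runx1 stood at 50.6 and 86.2 TPM in WT and at 71.4 and 50.3 TPM in Dido1∆E16 (mean 68.4 ± 25.1 and 60.9 ± 14.9, SD, n = 2 each). The second WT library was the highest and the second Dido1∆E16 library the lowest, and the genotypes overlapped. Its log2 fold change in the limma fit was -0.14 (SE 0.34, 95% interval -1.05 to 0.78, adjusted p = 0.907), which is less than the 0.76 between its WT libraries on the same scale.

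Runx3 stood at 14.2 and 16.7 TPM in WT and at 36.4 and 36.1 TPM in Dido1∆E16 (mean 15.4 ± 1.78 and 36.2 ± 0.209, SD, n = 2 each). The genotypes did not overlap, and the replicates of each lay within 0.22 of each other on the log2(TPM + 1) scale. The limma fit gave a log2 fold change of 1.18 (SE 0.18, 95% interval 0.70 to 1.67, unadjusted p = 0.00217, adjusted p = 0.191). Its p-value ranked 135 among 11855 genes. The RNA libraries are separate pools, and the p-values measure the spread between these 4 libraries only.

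These values are read against what the other genes did. limma called 3 genes higher (0.0253%) and 3 lower (0.0253%) at an adjusted p under 0.05 and a log2 fold change of at least 0.6 in size, 0.0506% of 11855 tested, and none of the 3 members tested was called. At an unadjusted p under 0.05, 8.65% of all genes were higher and 3.03% lower, and of the members Runx3 alone was among them. After each library was centred on its median, these were 818 higher and 558 lower genes in place of 1025 and 359. Both Dido1∆E16 libraries were above both WT libraries in 27.2% of all genes, and in 1 of the 3 members tested. A log2 fold change at least as large as that of Runx3 was found in 8.56% of the genes. In sorted bulk cells, more cells of a type that expresses a gene and more RNA per cell cannot be told apart.

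**Figure D1:**
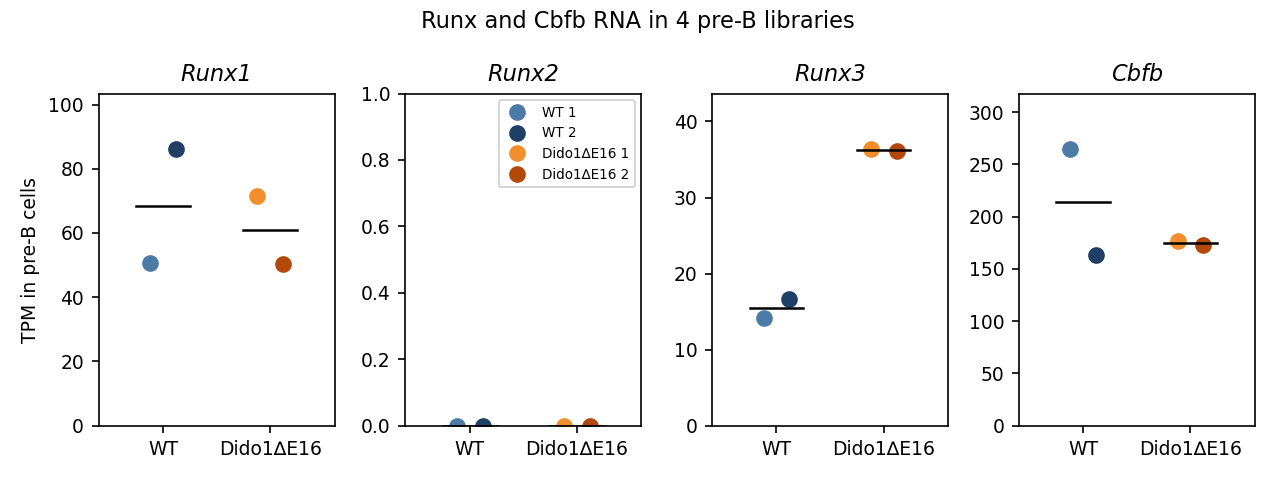
RNA level in TPM (vertical axis, linear, own scale per gene) of Runx1, Runx2, Runx3 and Cbfb in the 2 WT and 2 Dido1∆E16 pre-B libraries, with 1 point per library and a bar at the mean. The Runx3 points of Dido1∆E16 (36.4 and 36.1) lie above those of WT (14.2 and 16.7), the points of Runx1 and Cbfb overlap, and Runx2 is at 0 throughout.

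The Runx genes together summed to 64.8 and 103 TPM in WT and to 108 and 86.4 TPM in Dido1∆E16, so the sum overlapped. Runx3 made up 21.9% and 16.2% of this sum in WT and 33.7% and 41.8% in Dido1∆E16. Per Runx3 RNA there were 3.57 and 5.16 Runx1 RNAs in WT, and 1.96 and 1.39 in Dido1∆E16, again without overlap. Cbfb exceeded the summed Runx RNA in all 4 libraries, at a ratio of 4.09 and 1.59 in WT and of 1.64 and 2.01 in Dido1∆E16. For 2 libraries against 2, p = 0.333 is the least that an exact permutation test (two-sided) allows, and these shares are given as a description.

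The coverage of single exons shows where along the genes the reads lay. Values were scaled by the ratio of TPM to coverage of each library. Of 7 annotated Runx3 exon spans, 6 reached a scaled coverage of 1 in a library, and in all 6 each Dido1∆E16 library exceeded each WT library, with folds of 2.0 to 3.29 over the 5 that reached 1 in both WT libraries. The last exon of Runx3 (chr4:135175300-135177990) had a scaled coverage of 18.3 and 19.9 in WT and of 44.7 and 42.4 in Dido1∆E16. The exons of 1 gene share their libraries and are not separate evidence.

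The first exon of Runx3 P1 (chr4:135120645-135121163) was at 0 in both WT libraries and in the first Dido1∆E16 library and at 0.233 in the second. Almost the whole level of Runx3 was nevertheless placed on uc008vgb.1, the transcript that starts at P1 (14.2, 16.1, 34.9 and 34.7 TPM in the order WT 1, WT 2, Dido1∆E16 1, Dido1∆E16 2). The short P2 transcript uc008vgc.1 stood at 0, 0.618, 1.45 and 1.38 TPM in that order, and its own first exon had a scaled coverage of at most 1.69. The transcript values therefore do not show which Runx3 promoter was used in these cells.

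For Runx1 the split between transcripts differed between replicates of the same genotype. The P2 transcript uc007zzi.3 stood at 50.5 and 47.0 TPM in WT and at 62.6 and 50.3 TPM in Dido1∆E16. The P1 transcript uc007zzj.3 was at 0 and 39.2 TPM in WT and at 8.67 and 0 TPM in Dido1∆E16. Its first exon (chr16:92825934-92826074) had a scaled coverage of 124 in the second WT library and of 65.5 in the first Dido1∆E16 library, and it was listed at 0 in the libraries where the transcript was at 0. That exon belongs to P1 transcripts only, while most other exons are shared with P2 transcripts. StringTie assigns the reads of shared exons by estimate, and a transcript value of 0 can be a failed estimate. Whether reads of the first exon were absent or not assigned was not tested, so the 0 is not read as absence of P1 RNA.

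The cassette exon of Runx1 (chr16:92644154-92644345, 192 bp), which some Runx1 mRNAs leave out, had a scaled coverage of 119 and 213 in WT and of 167 and 124 in Dido1∆E16. The exon after it (chr16:92613599-92613760) had 151 and 235 in WT and 180.0 and 143 in Dido1∆E16. The transcripts without the cassette exon, uc007zzk.3 and uc012ain.2, were listed at 0 in every library. The short Runx1 transcript uc007zzl.1 stayed at or below 0.152 TPM. For Cbfb all RNA was placed on uc009nbq.2 of its 4 annotated transcripts.

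limma called 25 of 16372 transcripts (0.153%) and 7 of 13354 clusters of start sites (0.0524%), and no transcript or start cluster of the 4 genes was among them. The Runx3 transcript uc008vgb.1 had a log2 fold change of 1.15 (SE 0.17, unadjusted p = 0.00397, adjusted p = 0.274), the smallest p-value among the members' transcripts. The P2 start cluster of Runx1 had 0.20 (SE 0.17, adjusted p = 0.70) and its P1 start cluster -1.03 (SE 2.27, adjusted p = 0.896), an error that leaves its direction unknown.

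**Figure D2:**
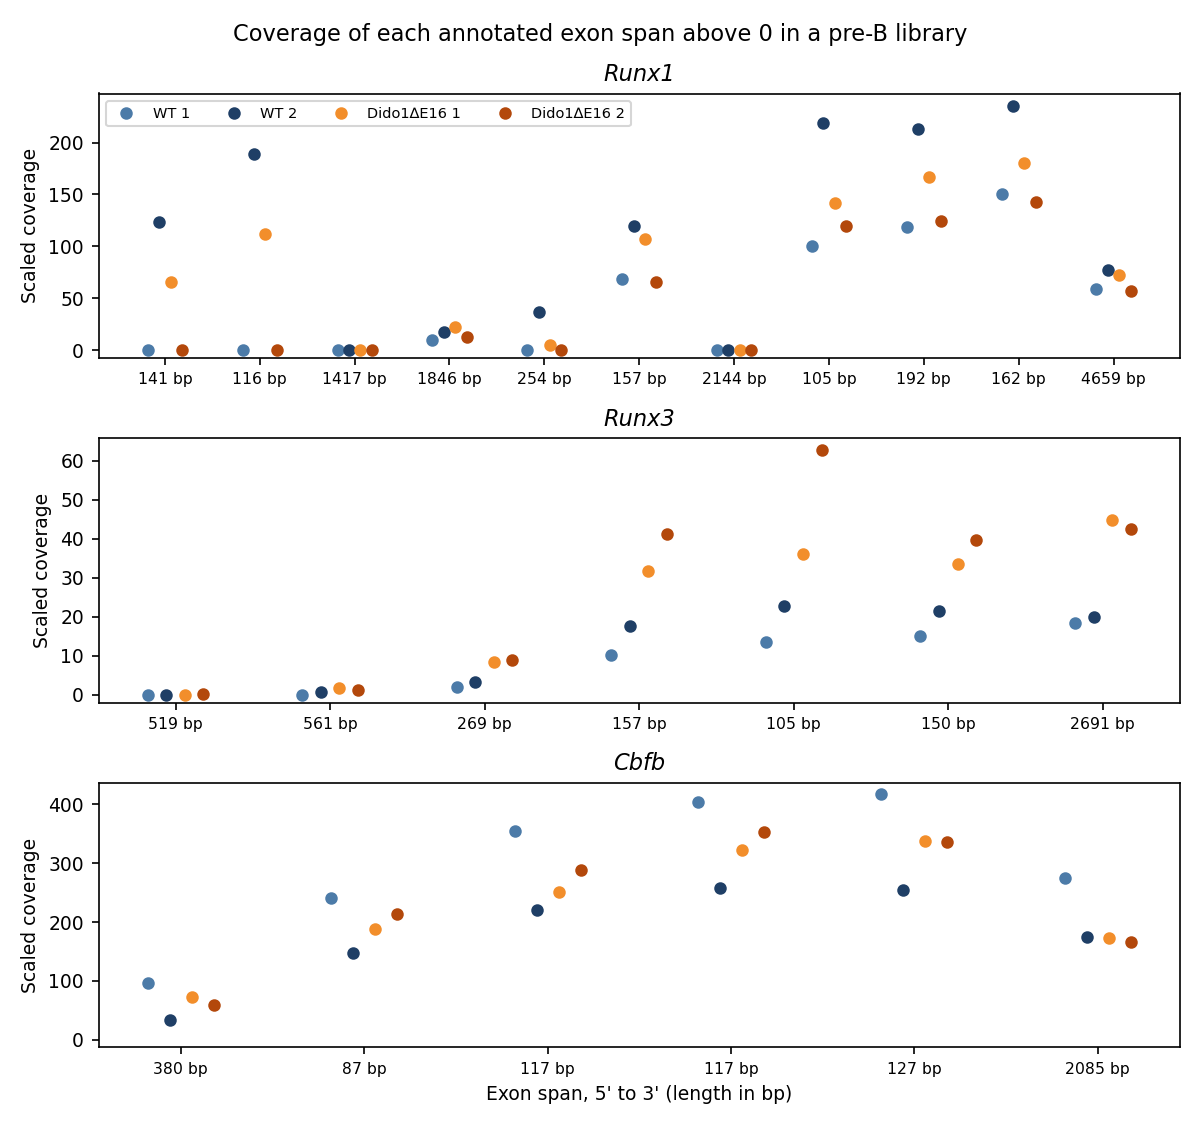
Scaled coverage (vertical axis, linear) of each annotated exon span with a value above 0, in 5' to 3' order with its length in bp, for Runx1, Runx3 and Cbfb in the 4 pre-B libraries, 1 point per library. The Dido1∆E16 points of Runx3 lie above the WT points from the second exon span on, while the genotypes interleave along Runx1, and along Cbfb except for a near tie in the last exon.

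Markers of other cells in the sort are given beside these levels. All 6 B-lineage markers were present in all libraries and summed to 9620.2 to 11550.4 TPM in WT and 10702.8 to 11063.4 TPM in Dido1∆E16. Runx3 is known from T and natural killer cells, and the 7 markers of those cells summed to 6.92 and 3.3 TPM in WT and to 7.22 and 23.6 TPM in Dido1∆E16. Of these, Cd3e, Cd3g, Cd4, Cd8a and Ncr1 were at 0 in every library. Klrb1c stood at 6.92 and 3.3 TPM in WT and at 7.22 and 7.37 TPM in Dido1∆E16. Nkg7 was at 0 in both WT libraries and at 0 and 16.3 TPM in Dido1∆E16. Neutrophil and monocyte markers, of which at most 1 of 8 was at 0 in a library, summed to 244 and 2212 TPM in WT and to 1069 and 9647 TPM in Dido1∆E16. The 4 erythroid markers that were measured summed to 299 and 918 TPM in WT and to 674 and 8601 TPM in Dido1∆E16. Markers of pro-B and large pre-B cells, none of the 6 at 0, summed to 726 and 404 TPM in WT and to 2429 and 1575 TPM in Dido1∆E16. In the limma fit 5 of the 6 were higher at an unadjusted p under 0.05, against 8.65% of all genes. This list was chosen with earlier results of these data known, so the count is a description. Mature B markers, none of the 5 at 0, summed to 1053 and 1074 TPM in WT and to 676 and 759 TPM in Dido1∆E16. Most of this difference was Ighd, at 546 and 438 TPM in WT and at 223 and 155 TPM in Dido1∆E16. Fcer2a and Cr2 were also lower in both Dido1∆E16 libraries, while Ms4a1 and Cd22 overlapped between the genotypes. Plasma cell markers summed to 244 and 280 TPM in WT and to 224 and 225 TPM in Dido1∆E16, with Tnfrsf17 at 0 throughout. Most of this sum was Sdc1 and Xbp1. Sdc1 stood at 121 and 102 TPM in WT and at 64.4 and 57.0 TPM in Dido1∆E16, without overlap (limma adjusted p = 0.22). Xbp1, at 119 and 170 TPM in WT and at 154 and 165 TPM in Dido1∆E16, overlapped, as did Prdm1. Jchain stood at 0.44 and 0 TPM in WT and at 1.07 and 0 TPM in Dido1∆E16. Plasmacytoid dendritic cell markers summed to 418 and 441 TPM in WT and to 578 and 537 TPM in Dido1∆E16, most of it Irf8, Tcf4 and Bst2. Siglech stood at 0 in both WT libraries and at 0.781 and 5.26 TPM in Dido1∆E16, and Ccr9 at no more than 1.09 TPM. The part of these cell types in the Runx3 value was not tested.

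The proteins that Runx factors work with were measured in the same fit. None of the genes of the 5 lists was called by limma, and the counts at an unadjusted p under 0.05 are given per list. Over all genes tested, 8.65% were higher and 3.03% lower at that threshold. The median log2 fold change of all 11855 genes was 0.07.

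Corepressors are recruited by Runx proteins to silence genes, in part through Groucho-related Tle proteins. All 11 were tested, none reached an unadjusted p under 0.05, and their median log2 fold change was 0.09. Tle2, a Groucho-related corepressor, stood at 1.46 and 2.4 TPM in WT and at 1.35 and 0 TPM in Dido1∆E16 (log2 fold change -0.92, SE 0.65, adjusted p = 0.671).

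Coactivators, which acetylate or methylate histones or modify Runx proteins, had a median log2 fold change of 0.20 over 6 genes, again with none at an unadjusted p under 0.05. Kmt2a, a histone H3K4 methyltransferase that binds Runx1, stood at 50.7 and 24.5 TPM in WT and at 54.6 and 60.8 TPM in Dido1∆E16 (log2 fold change 0.69, SE 0.38, adjusted p = 0.593). The acetyltransferase gene Ep300 had 103 and 78.0 TPM in WT and 98.1 and 109 TPM in Dido1∆E16, with overlap. In the ETO family, corepressors known from the leukaemic Runx1 fusion, Runx1t1 was listed at 0 throughout. The levels of its relatives overlapped between genotypes, with log2 fold changes of -0.06 (SE 0.21, adjusted p = 0.935) for Cbfa2t2 and 0.08 (SE 0.16, adjusted p = 0.884) for Cbfa2t3.

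Of 14 transcription factors that share enhancers or complexes with Runx1, 10 were tested, 1 was higher at an unadjusted p under 0.05 and their median log2 fold change was -0.06. That gene was Erg, an Ets factor of stem cells and early B cells, at 13.4 and 7.06 TPM in WT and 114 and 88.8 TPM in Dido1∆E16. Its log2 fold change was 3.24 (SE 0.35, unadjusted p = 0.000582), and its adjusted p in the limma fit was 0.153. Erg is also 1 of the 6 markers of pro-B and large pre-B cells used here. Tcf3, which encodes the E proteins E12 and E47, had 1141 and 912 TPM in WT and 1254 and 1208 TPM in Dido1∆E16 (log2 fold change 0.27, SE 0.16, adjusted p = 0.615). Gata2 and Tal1, partners of Runx1 in stem cells, were listed at 0 in all libraries.

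Of 24 genes known as Runx targets in blood, T cells or bone, 14 were tested, and their median log2 fold change was 0.26. At an unadjusted p under 0.05, 2 were higher and 1 was lower, beside 8.65% and 3.03% of all genes, and these few counts are a description. Blk, a Src-family kinase of B cells, stood at 489 and 522 TPM in WT and at 352 and 378 TPM in Dido1∆E16 without overlap (log2 fold change -0.47, SE 0.12, unadjusted p = 0.0146, adjusted p = 0.309). Itga2b, an integrin of stem cells and platelets, stood at 0 and 1.41 TPM in WT and at 6.88 and 4.92 TPM in Dido1∆E16 (log2 fold change 2.14, SE 0.59, unadjusted p = 0.0208, adjusted p = 0.332). The other higher gene, named after its values were seen, was Prf1, the perforin of killer cells, listed at 0 in both WT libraries and at 2.03 and 3.25 TPM in Dido1∆E16. The T cell targets Cd4, Cd8a and Gzmb, the cytokine targets Csf2 and Il3 and the bone targets Bglap and Col10a1 were listed at 0 in all libraries. The myeloid targets Mpo and Elane, which are also neutrophil markers here, reached 209 and 153 TPM in the second Dido1∆E16 library and at most 18.0 TPM in the others.

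**Figure D3:**
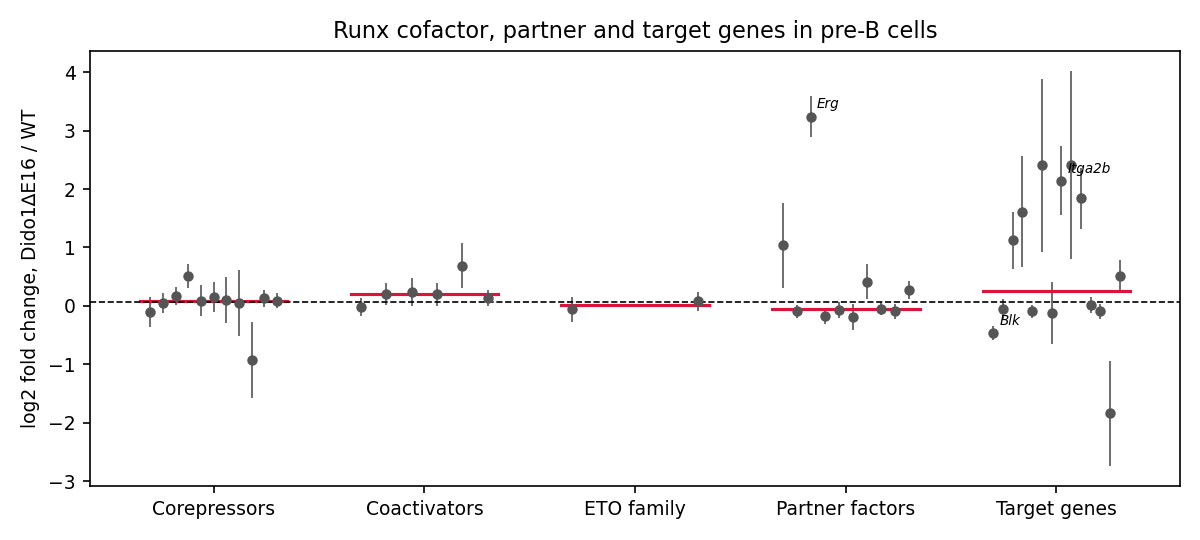
Log2 fold change of Dido1∆E16 against WT in pre-B cells (vertical axis) with its SE as bars, for the tested genes of the 5 lists, each point a gene in alphabetical order within its list. Red lines mark the list medians (-0.06 to 0.26) and the dashed line the median of all genes (0.07). Erg stands highest at 3.24, and names are given for Erg, Blk and Itga2b.

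The genes with levels most like those of the members were found by the root mean square difference of log2(TPM + 1) over the 4 libraries. Nearest to Runx3 were Gimap5 (0.17), Ffar1 (0.18) and Opn3 (0.18), with levels of 12.2 to 17.9 TPM in WT and 30.4 to 43.4 TPM in Dido1∆E16. Nearest to Runx1 were Mrpl32 (0.11), Smim7 (0.11) and Ifrd1 (0.12). Nearest to Cbfb were Ppp1cc (0.04), Rag2 (0.05) and Rbbp4 (0.09), each highest in the first WT library, as Cbfb was. All these genes were picked by their values in the same libraries, so a shared order of the libraries follows from the choice.

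In LSK cells MACS2 found fewer peaks in each Dido1∆E16 library than in either WT library at Runx1, Runx2 and Runx3, while the counts at Cbfb overlapped. With HOMER, the other peak caller, the genotypes overlapped at all 4 genes. The promoters of Cbfb and Runx3 P1 were accessible in all 4 libraries by both callers, while Runx1 P1, Runx1 P2 and Runx3 P2 were accessible in WT by both callers and in Dido1∆E16 by HOMER in the second library only. RNA of LSK cells was not sequenced in this series, so none of these regions is set against the RNA of the same cells. The study measured Runx1 RNA in LSK cells by RT-qPCR, and those values are not used here.

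The libraries differed in depth and in the number of peaks over the whole genome, and this bears on every count at a single gene. In units of 1e+06 tags they held 10.2 and 52.1 in WT and 22.5 and 44.6 in Dido1∆E16, and MACS2 listed 27352 and 57739 peaks in WT and 13208 and 16329 in Dido1∆E16. The second Dido1∆E16 library thus had more than 4 times the tags of the first WT library and fewer peaks. As a check of the label, 4 of 6 promoters of LSK marker genes held a MACS2 peak in 3 libraries and 5 of 6 in the second WT library. Ly6a, which encodes Sca-1, had a promoter peak in none, and Hlf in the second WT library only.

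Runx1 had 9 and 17 MACS2 peaks in WT and 1 and 2 in Dido1∆E16. Runx2 had 3 and 8 in WT and 0 and 2 in Dido1∆E16, and Runx3 had 5 and 11 in WT and 3 and 4 in Dido1∆E16. Each of the 3 genes gave p = 0.333 in the exact two-sided permutation test, the smallest value that 2 against 2 libraries can give. Cbfb had 1 and 3 peaks in WT and 2 and 1 in Dido1∆E16 (exact permutation p = 1.0). Among all 17769 genes with a MACS2 peak, 35.6% showed this order of the genotypes and 0.191% the opposite order, so the pattern of the Runx genes was frequent. The ATAC-seq libraries of a genotype are described as biological replicates by the study.

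HOMER gave Runx1 8 and 21 peaks in WT and 3 and 11 in Dido1∆E16. For Runx2 it gave 2 and 14 in WT and 0 and 4 in Dido1∆E16, and for Runx3 5 and 15 in WT and 4 and 14 in Dido1∆E16. Cbfb had 1 and 3 in WT and 1 and 1 in Dido1∆E16. With HOMER, 19.5% of 18321 genes had fewer peaks in both Dido1∆E16 libraries, and none of the 4 members was among them. When each library contributed its 13208 best-scoring MACS2 peaks, the number in the smallest list, Runx1 had 2 and 1 peaks in WT and 1 and 1 in Dido1∆E16, and the means of Runx2 and Runx3 were equal between genotypes. Under that limit 7.14% of all genes had fewer and 6.63% more peaks in Dido1∆E16 without overlap, and Runx1, Runx2, Runx3 and Cbfb all overlapped or tied.

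**Figure D4:**
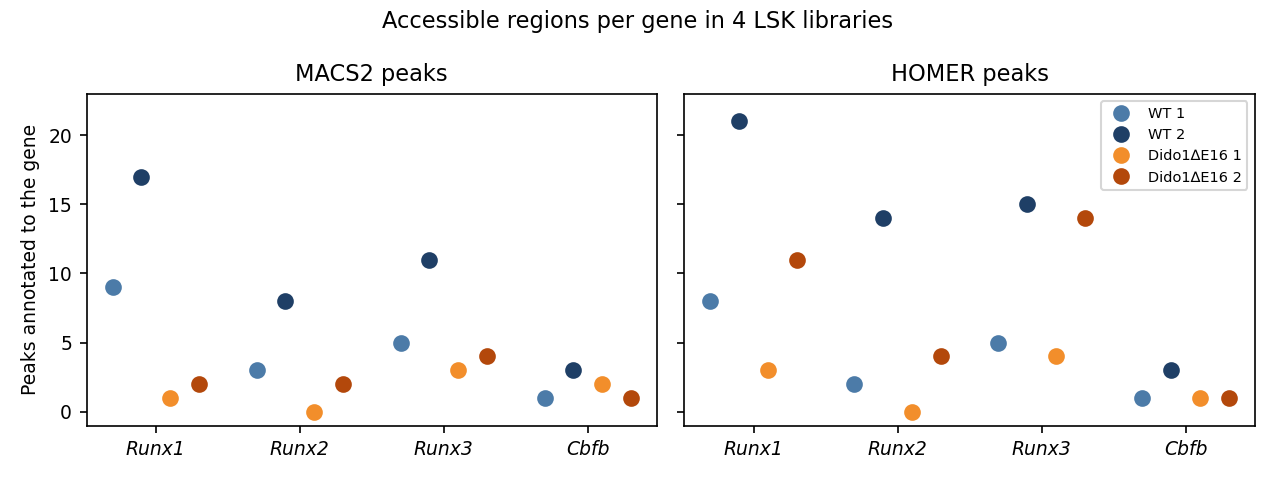
Number of peaks annotated to each gene (vertical axis, linear) by MACS2 on the left and HOMER on the right, in the 2 WT and 2 Dido1∆E16 LSK libraries, 1 point per library. By MACS2 the Dido1∆E16 points lie below both WT points at the 3 Runx genes (for Runx1, 1 and 2 against 9 and 17), and by HOMER they overlap.

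The promoters were compared by the strongest MACS2 peak between 1000 bp upstream and 200 bp downstream of the annotated start. MACS2 gives each peak a score that is higher for stronger enrichment and depends on depth. Its percentile among the peaks of the same library also depends on how many weaker peaks that library lists, so neither the score nor the percentile is read as a difference between genotypes. The Cbfb promoter (region chr8:105170324-105170723) scored 102 and 154 in WT and 68 and 67 in Dido1∆E16. Its percentiles were 93.3 and 92.1 in WT and 76.3 and 87.8 in Dido1∆E16. Runx3 P1 (chr4:135120216-135120668) scored 71 and 193 in WT and 31 and 38 in Dido1∆E16, at percentiles of 85.1 and 95.4 in WT and 33.3 and 65.3 in Dido1∆E16. Both promoters thus had a peak in every library.

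Runx1 P1 (chr16:92825958-92826206) scored 47 and 66 in WT, at percentiles of 68.4 and 65.7, and lacked a MACS2 peak in Dido1∆E16. Runx1 P2 (chr16:92697292-92697491) scored 14 and 39 in WT, Runx2 P2 15 and 40, and Runx3 P2 (chr4:135152253-135152537) 18 and 16, and none had a MACS2 peak in Dido1∆E16. Runx2 P1 had no peak in any library by either caller. HOMER found a peak at Runx1 P1, Runx1 P2 and Runx3 P2 in the second Dido1∆E16 library and in both WT libraries, and found none in the first Dido1∆E16 library. At Runx2 P2 HOMER found a peak in the second WT library only. Downstream of that start and beyond the promoter limit, the second Dido1∆E16 library had a HOMER peak at 534 bp and a MACS2 peak at 1392 bp.

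The paired TGTGGT words printed above thus lay in an accessible region at Runx1 P1 in both WT libraries by both callers. By HOMER alone they also did so in the second Dido1∆E16 library. At Runx3 P1 they lay in an accessible region in all 4 libraries by both callers, and at Runx2 P1 in no peak. In the pre-B libraries, by contrast, the first exon of Runx3 P1 had almost no coverage. LSK and pre-B cells are different populations, and no comparison between them was tested.

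Intersecting the WT peaks gave 17 regions annotated to the 4 genes by nearest start, 8 at Runx1, 3 at Runx2, 5 at Runx3 and 1 at Cbfb. MACS2 found no Dido1∆E16 peak in 9 of them (52.9%), against 43.7% of the 26327 regions shared by the WT libraries over all genes. The 9 were 6 of 8 at Runx1, 2 of 3 at Runx2, 1 of 5 at Runx3 and 0 of 1 at Cbfb. By place, they were 4 of 6 promoter regions against 15.0% over all genes, 2 of 5 intron regions against 63.3%, and 3 of 6 intergenic regions against 59.7%. Assigned by position instead, the shared regions were 5 at Runx1, 5 at Runx2, 2 at Runx3 and 1 at Cbfb. Of these 13, 7 had no Dido1∆E16 MACS2 peak (53.8%), 3 of them at Runx2. The regions described one by one below are those by nearest start.

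Because detection depends on peak strength, the regions were also placed in 5 equal classes by their mean score percentile in the WT libraries. Over all genes the share without a Dido1∆E16 peak fell from 80.5% in the lowest class over 47.5% in the middle class to 2.8% in the highest. The lowest class held 8 member regions, 5 of them without a Dido1∆E16 peak, and the middle class held 5, 4 of them without one. The highest class held 3 member regions, the Cbfb promoter, Runx3 P1 and a Runx2 intron, and each kept a peak in at least 1 Dido1∆E16 library. The 4 promoter regions without a Dido1∆E16 peak were 3 of the lowest class and, with Runx1 P1, 1 of the middle class.

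HOMER gave another count for the second Dido1∆E16 library. Of the 9 regions without a Dido1∆E16 MACS2 peak, 6 held a HOMER peak of the second Dido1∆E16 library (66.7%) and 0 one of the first. Over all 11500 such regions the shares were 28.3% and 10.9%. With HOMER throughout, 3 of 16 member regions shared by the WT libraries lacked a Dido1∆E16 peak (18.8%), against 29.3% of all regions.

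Between the Runx1 promoters, 24.1 kb into the gene from P1, lay an intron region (chr16:92801637-92802017) in the stretch where a blood stem cell enhancer of Runx1 is known. It scored 48 and 62 in WT and 27 in the second Dido1∆E16 library, and had no peak in the first by either caller. Another Runx1 intron region, 110.3 kb from P1 (chr16:92715610-92715810), scored 34 and 58 in WT and had no peak in either Dido1∆E16 library. One more, 52.3 kb from P2 (chr16:92644628-92645048), scored 17 and 25 in WT and 13 in the second Dido1∆E16 library. Upstream of Runx1, 3 intergenic regions at 41.3, 58.0 and 202.6 kb from P1 had no MACS2 peak in Dido1∆E16, and those at 58.0 and 202.6 kb had a HOMER peak in the second Dido1∆E16 library. Which gene an intergenic region serves is not known from these data, since the annotation takes the nearest start.

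At Runx2 an intron region 63.6 kb from the P2 start (chr17:44672676-44673021) scored 20 and 59 in WT and had no MACS2 peak in Dido1∆E16, but a HOMER peak in the second library. Another intron region 81.8 kb from the P2 start (chr17:44654480-44654870) scored 57 and 163 in WT and 26 in the second Dido1∆E16 library, and had no peak in the first. It is the only region at the 4 genes among the differential regions that were deposited, where a wider interval around it (chr17:44654347-44655068) has log2 tag counts of 6.36 and 6.33 in WT and of 4.70 and 5.35 in Dido1∆E16. Those lists were chosen on this contrast, so the values are a description. They hold no region at Runx1. The paper, however, names Runx1 among genes with differing accessibility outside promoters, and took it for RT-qPCR from its own list of differing regions.

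At Runx3 the 3 intergenic regions lay 14.8, 25.4 and 28.3 kb beyond the 3' end of the gene. The farthest (chr4:135206254-135206594) scored 42 and 94 in WT and 32 and 18 in Dido1∆E16, and was found by HOMER in all 4 libraries. The nearest (chr4:135192823-135193192) scored 12 and 57 in WT and 12 in the second Dido1∆E16 library. The middle one (chr4:135203379-135203597) scored 17 and 71 in WT and 40 in the first Dido1∆E16 library. It was the only member region without a MACS2 peak in the second Dido1∆E16 library that had one in the first, and HOMER found it in all 4.

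**Figure D5:**
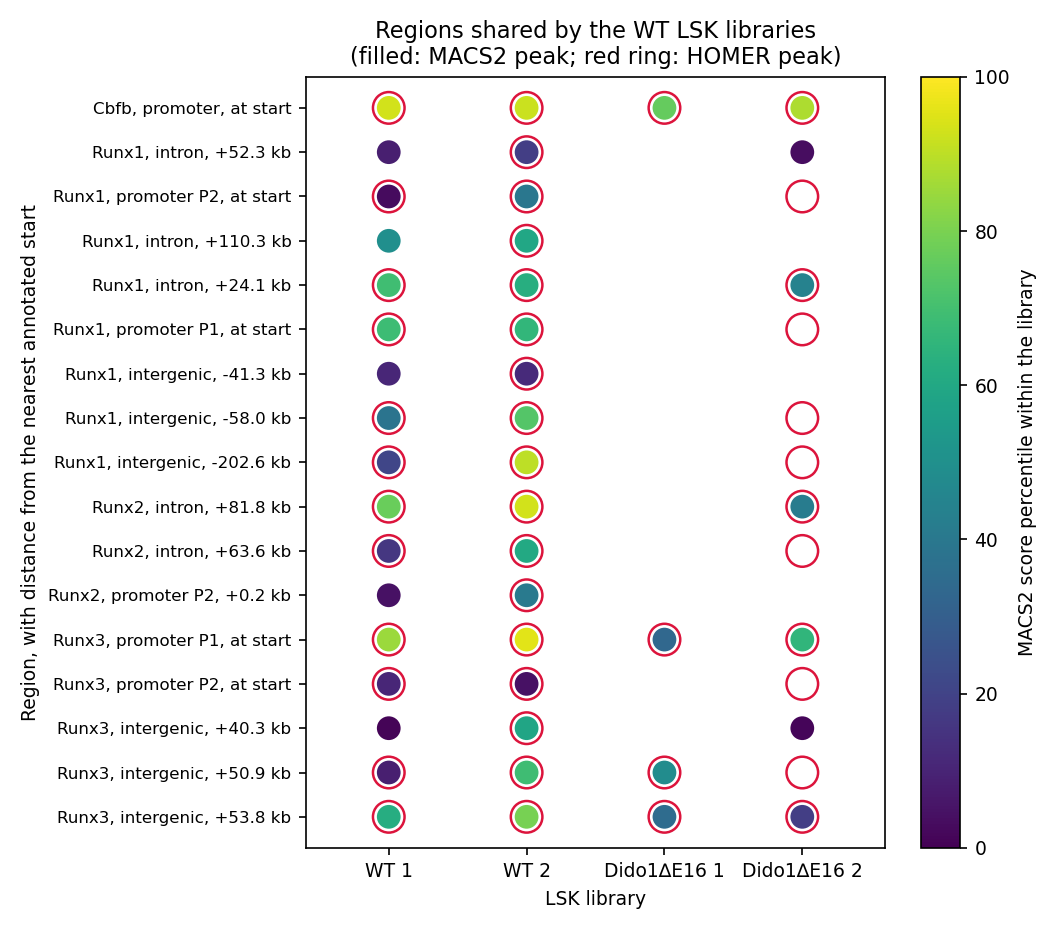
The 17 regions that the WT LSK libraries shared at the 4 genes (listed vertically, with the distance in kb from the nearest annotated start), in each of the 4 libraries (columns). A filled point is a MACS2 peak, coloured by its score percentile within the library, and a red ring is a HOMER peak. The first Dido1∆E16 library has peaks at 4 of the 17 regions, the Cbfb promoter and 3 regions of Runx3.

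Sequence windows of 200 bp at the centre of these regions were searched for TGTGGT and TGCGGT on both strands. Of the 17 member regions, 6 held either word, 3 of them among those without and 3 among those with a Dido1∆E16 MACS2 peak. Over all WT-shared regions 24.5% held either word, 15.0% of promoter and 30.1% of other regions. Among promoter regions over all genes the share was 15.1% without and 15.0% with a Dido1∆E16 peak.

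Apart from the P1 promoters, the words occurred in 2 intergenic regions upstream of Runx1, in the Runx1 intron region 24.1 kb from P1 and in 1 region downstream of Runx3. They are shown with 12 bases on either side, on the strand that carries the word in capitals.
Runx1 intron, 24.1 kb from P1, chr16:92801749-92801778, plus strand: ggcgcgcaggccTGCGGTtttctcgctctt
Runx1 upstream, 41.3 kb, chr16:92867421-92867450, plus strand: attcttcctctcTGTGGTctttgaccagtt
Runx1 upstream, 202.6 kb, chr16:93028844-93028873, plus strand: tgcttcccctttTGTGGTgggaaagggaag
Runx3 downstream, 14.8 kb, chr4:135192966-135192995, plus strand: gaacatctgtccTGTGGTcagatctgccat
The region 41.3 kb upstream of Runx1 holds a second copy of TGTGGT on the other strand. Both regions upstream of Runx1 were without a Dido1∆E16 MACS2 peak, and the Runx1 intron and Runx3 downstream regions kept one in the second Dido1∆E16 library.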

How the data were processed

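RNA-seq of sorted pre-B cells and ATAC-seq of LSK cells were analysed in 2 libraries per genotype and assay, grouped by the genotype in the labels. The members and all gene lists were chosen with earlier results of these data known. Per the file headers and the study's methods, the authors aligned reads to GRCm38/mm10 (BWA 0.7.15 is named for this), removed duplicates and ran StringTie on UCSC known genes, which gave each transcript a TPM, an FPKM and a coverage, and each exon a coverage. The deposited MACS2 peaks carry a whole-number score and the deposited HOMER peaks a constant, both called per library and annotated with ChIPseeker (promoter, 1000 bp upstream to 200 bp downstream). The deposited log2 tag counts of the authors' differential regions were used for 1 region, and columns that hold the authors' own comparisons were not used. ATAC-seq libraries beyond those 2 per genotype were not analysed here.

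Transcripts were named by the authors' identifiers (30124) or by their exons in GENCODE (26256), and 7373 had no symbol. TPM was summed per gene and per cluster of start sites within 1 kb. Genes with a mean TPM of at least 1 were tested with limma 3.58.1 (R 4.3.3) on log2(TPM + 1), with an eBayes trend and Benjamini-Hochberg adjustment over all genes, two-sided, called at an adjusted p under 0.05 and a log2 fold change of at least 0.6 in size. Fold changes on this scale understate those of low genes. The files hold no read counts, and the aligned bases in transcripts, 1121 to 1635 Mb per library, stand for depth. The scripts were tested on simulated data. GENCODE exons were matched to the transcripts with bedtools 2.31.1. Peaks were intersected by their coordinates in Python (overlap of 1 bp), and counts per gene were compared by the exact permutation test (scipy 1.17.1). Promoter sequences are RefSeq, and others were read from GRCm38. Of each list, the 2 tested genes with the smallest p were named with values, along with genes at 0 in all libraries and the 3 genes nearest in level to each member. One of these genes is not reported here. Alternatives were another pseudocount (0.1), no filter, median centring, FPKM, no trend, a replicate block, HOMER peaks, equal numbers or the better 50% of peaks, assignment by position, summed width, an overlap of 50%, and leaving out each library.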

Additional observations from a re-analysis of the deposited data

How the results depend on the processing

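No member and no list gene was called in any of the limma fits tried (for the lists, FPKM and the fit without a trend were added after seeing the data, and the lowest adjusted p of Erg was 0.0848, without a trend). Over all genes tested, calls ranged from 0 to 87 around 6, over transcripts from 0 to 532 around 25, and over start clusters from 0 to 381 around 7. The log2 fold change of Runx3 stayed between 1.07 and 1.3, with adjusted p-values from limma of 0.119 to 0.702. Leaving out 1 library gave -0.52 to 0.24 for Runx1 (0.24 without WT replicate 2, 0.11 without Dido1∆E16 replicate 2) and -0.60 to 0.09 for Cbfb (0.09 without WT replicate 1, also for its transcript and start cluster). The Runx1 P1 transcript and start cluster ran from -3.69 to 1.64 (1.64 without WT replicate 2, 0.61 without Dido1∆E16 replicate 2). Cbfa2t2 ran from -0.21 to 0.08 and turned to 0.06 without WT replicate 1 and 0.08 without Dido1∆E16 replicate 2, and Cbfa2t3 ran from -0.08 (without Dido1∆E16 replicate 1) to 0.25 and was -0.0026 after median centring. Over all fits Itga2b ran from 1.26 (FPKM) to 3.93 (pseudocount 0.1), Tle2 from -2.38 (pseudocount 0.1) to -0.3 (without Dido1∆E16 replicate 2) and Kmt2a from 0.18 (without WT replicate 2) to 1.2 (without WT replicate 1). The cause was not tested.

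The replicate numbers are shared by the genotypes, and deviations from the group means correlated at 0.05 over 11855 genes. A single value over all genes cannot show whether libraries of the same number share more than that number. In both genotypes, replicate 2 had higher neutrophil and monocyte and erythroid marker sums than replicate 1. Its pro-B and large pre-B sum and its aligned bases were lower in both. The T and NK and the plasmacytoid dendritic sums moved in opposite directions in the genotypes. Whether a sort or batch was shared was not tested. With the replicate block, limma called 0 genes, and adjusted p-values were 0.376 for Runx3 (log2 fold change 1.18), 0.935 for Runx1 and 0.785 for Cbfb. For MACS2 peaks, differences within a replicate number, an analysis added after seeing the data, were -8 and -15 at Runx1, -3 and -6 at Runx2, -2 and -7 at Runx3, and 1 and -2 at Cbfb. The exact sign-flip permutation p was 0.5 at each Runx gene, the smallest that 2 pairs allow, and 1.0 at Cbfb.

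The difference in mean MACS2 peaks per gene, Dido1∆E16 minus WT, ran over the left-out libraries from -15.5 to -7.5 at Runx1, -7.0 to -2.0 at Runx2, -7.5 to -1.5 at Runx3 and -1.5 to 0.5 at Cbfb. With equal numbers of best-scoring peaks it was -0.5 at Runx1, 0.0 at Runx2, 0.0 at Runx3 and 0.5 at Cbfb. With the better-scoring 50% it was -4.5 at Runx1, -2.0 at Runx2, -3.0 at Runx3 and 0.0 at Cbfb. By position it was -7.0, -5.0, -1.5 and 0.0 in that order. The share of member regions without a Dido1∆E16 peak was 52.9% (43.7% over all genes), 18.8% with HOMER (29.3%) and 0.0% with equal numbers (0 of 4 regions, against 13.2%). With the better-scoring 50% the share was 66.7% (4 of 6 regions, against 40.4%), and over the left-out libraries 55.6% to 76.5%. It was 76.5% without Dido1∆E16 replicate 2 (57.9% over all genes) and 71.8% without WT replicate 1 (69.9%). Depth and peak numbers differ between libraries, which limits every count at a single gene.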
